A study of Mus musculus with 20 samples.

Results

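Vash1 and 9 genes of the VEGF pathway and the vessel wall were followed through the retinas of young and old mice with and without N-acetylcysteine ethyl ester (NACET). The 10 genes, of 35006 in the count tables, were Vash1, the ligands Vegfa, Pgf, Angpt1 and Angpt2, the receptors Kdr, Flt1 and Tek, and the endothelial junction genes Pecam1 and Cdh5. Vash1 was chosen by its call in old against young controls, so its values in that contrast are given as a description, with no test. The other 9 were taken by name, as the factors and receptors among which a vasohibin acts. All 10 had enough counts to be tested in every comparison.

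VEGF-A, made in the retina mainly by glia and neurons, signals through the receptor encoded by Kdr on endothelial cells, while the receptor encoded by Flt1 binds the same ligand tightly and in its soluble form keeps it from Kdr. Placental growth factor (Pgf) binds Flt1 alone. Angiopoietin 1 activates the endothelial receptor Tek (TIE2) and steadies vessels, and angiopoietin 2 mostly opposes it. Vasohibin 1, encoded by Vash1, was first known as a feedback inhibitor of angiogenesis made by endothelial cells in response to VEGF, and it is also an enzyme that, bound to its partner SVBP, removes the last tyrosine from alpha-tubulin. The enzyme encoded by Ttl puts that tyrosine back, and neurons use the same cycle.

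The study asked what NACET, a form of cysteine that enters cells readily, does in the ageing retina. Whole retinas, 1 per mouse, were taken from C57BL/6J mice in 4 groups: 4 young controls, 6 young mice given NACET, 4 old controls and 6 old mice given NACET at 50 mg/kg per day for 5 days in the drinking water. Controls drank water without it. The titles put each young control at 119 days and each old control at 668 days. NACET was given to young mice of 129 days in 4 cases and 119 days in 2, and to old mice of 668, 581 and 574 days in 2 cases each, so treated and control mice differed in age within a group. The study's methods describe male mice, but 2 young controls and 2 young NACET mice are labelled female. Old control replicate 4, labelled male, carried Xist at 2473 CPM, a level otherwise found in the 4 libraries labelled female. Its counts of Y-linked genes summed to 1, against 4800 to 7484 in the other old controls, so its RNA was that of a female. It was kept under its label, so results by labelled sex count it as male. The title of young NACET replicate 6 gives 119 days and its batch tag 129 days.

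Library totals ran from 17700500 to 31081959 counts. Values below are CPM, the counts of a gene for every 1000000 counts in its library. Whole retina also carried traces of neighbouring tissue. Over 8 pigment epithelium markers the summed level ran from 29.7 CPM in old NACET replicate 3 to 214.8 CPM in young control replicate 4. The summed level of 4 corneal epithelium markers reached 384.2 CPM in old control replicate 2 and 363.9 CPM in young NACET replicate 4. Endothelium itself was a small part of every library: 6 endothelial markers (Pecam1, Cdh5, Cldn5, Esam, Egfl7 and Tie1), each with counts in every library, summed to 21.0 to 46.6 CPM, and 5 photoreceptor markers to 42100 to 67510 CPM. In RNA from whole tissue, fewer endothelial cells and less RNA in each of them cannot be told apart.

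Vash1 lies on the plus strand of chromosome 12 (mm9, 88019650 to 88036630) and is protein coding. Kdr (76328852 to 76374483) and Flt1 (148373180 to 148537587) lie on the minus strand of chromosome 5, Vegfa on the minus strand of chromosome 17 (46153942 to 46169326), and Pgf, like Vash1, on chromosome 12 (86507589 to 86518246, minus strand). Exons of Angpt1 (chromosome 15, minus strand) overlap those of Gm17473 on the other strand over 283 bases, and because reads were counted without strand the counts of the pair cannot be fully told apart. The promoters of Vash1 and Tek are printed because they sit far apart in CpG content, a feature that differs between the promoters of broadly used and cell-type-restricted genes. Each shows the 250 bases before the start of the gene from RefSeq (GRCm38), 5′ to 3′ on the gene's own strand, with CpG dinucleotides in capitals.
Vash1 (GRCm38 chr12:86678450-86678699, plus strand): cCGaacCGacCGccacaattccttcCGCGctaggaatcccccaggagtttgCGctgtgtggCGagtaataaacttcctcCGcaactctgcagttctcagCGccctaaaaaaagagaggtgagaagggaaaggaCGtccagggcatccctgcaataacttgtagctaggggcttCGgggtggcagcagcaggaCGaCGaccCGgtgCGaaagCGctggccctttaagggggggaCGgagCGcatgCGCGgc
Tek (GRCm38 chr4:94739039-94739288, plus strand): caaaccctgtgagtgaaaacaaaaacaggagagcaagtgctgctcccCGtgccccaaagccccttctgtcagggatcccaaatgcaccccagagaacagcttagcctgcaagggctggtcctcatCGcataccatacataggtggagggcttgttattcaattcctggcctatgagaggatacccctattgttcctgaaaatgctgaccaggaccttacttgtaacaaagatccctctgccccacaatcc
The Vash1 window held 20 CpG, more than 82.1% of 32851 promoter windows of that length, whose median was 6. The Tek window held 2 CpG, more than 18.8% of them. Both sequences also occur once, unchanged, in the mm9 genome of the files.

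The study follows NRF2, the factor that binds antioxidant response elements under oxidative stress, and VEGF is a textbook target of hypoxia. So the windows were searched on both strands for the antioxidant core TGACNNNGC, the hypoxia core ACGTG and the TATA box TATAAA. Of all windows, 10.2% held the first, 16.6% the second and 12.4% the third. The Vash1 window held none of them. Kdr, the member with the lowest p under NACET in both ages, held 1 antioxidant core, shown in capitals in the same 250 bases before its start.
Kdr (GRCm38 chr5:75978456-75978705, minus strand): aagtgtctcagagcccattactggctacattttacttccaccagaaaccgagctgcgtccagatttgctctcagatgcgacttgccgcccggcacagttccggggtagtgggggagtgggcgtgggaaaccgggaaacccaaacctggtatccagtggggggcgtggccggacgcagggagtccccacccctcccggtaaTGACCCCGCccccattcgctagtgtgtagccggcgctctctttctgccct
Pgf held 1 antioxidant core in 1 of its 2 windows, and Flt1 held a TATA box. Vegfa held 1 hypoxia core in 1 of its 2 windows, which lies inside the gene (mm9 46162113 to 46162362). The Vegfa window before the gene's own start held no hypoxia core. Sites outside the 250 bases of a window were not searched, so an absence here does not speak for the whole promoter. These are matches of letters only. Angpt1, Angpt2, Pecam1 and Cdh5 were not among the windows used here.

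Levels can be set against each other between genes only after division by exon length, as CPM per kilobase of exon. On that scale the 10 genes spanned over 2 orders of magnitude. In young controls the means were 30.5 for Vegfa, 17.6 for Kdr, 9.31 for Vash1, 7.69 for Flt1 and 1.57 for Pecam1 CPM per kilobase. Tek (0.865), Cdh5 (0.777), Angpt2 (0.577), Pgf (0.272) and Angpt1 (0.174) followed. Vegfa stood above Kdr, and Kdr above Vash1, without overlap of libraries in each of the 4 groups, and so did the 4 leading genes above Pecam1. Tek and Cdh5 overlapped in each of them, and so did Cdh5 and Angpt2 except among young controls. Pgf and Angpt1 overlapped in each group but the old NACET mice. The order of Vash1 and Flt1 was not the same in young and old mice. Vash1 ranged from 8.62 to 9.60 CPM per kilobase and Flt1 from 6.56 to 8.52 in young controls. In old controls Vash1 ranged from 6.56 to 7.22 and Flt1 from 7.55 to 9.19, so the ranges overlapped in neither control group. The turn in controls is a description only, because old against young controls is the contrast that chose Vash1. The order of these 2 genes also rests on the exon lengths used, and the annotation behind the counts is not given. In young NACET mice Vash1 ranged from 8.79 to 11.0 and Flt1 from 6.96 to 9.14 CPM per kilobase, which overlapped. In old NACET mice Vash1 ranged from 6.92 to 7.90 and Flt1 from 7.94 to 9.29, which did not.

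Both VEGF receptors stood well above the endothelial junction genes. The ratio of Kdr to Pecam1 per kilobase had a median of 11.7 over the 20 libraries (range 7.59 to 16.0), and that of Kdr to Cdh5 22.0 (15.2 to 40.7). Flt1 exceeded Pecam1 by a median of 5.35 (4.08 to 7.97). Vash1 exceeded its paralogue Vash2 by a median of 7.42 (5.15 to 12.5), so vasohibin 1 was the main vasohibin transcript in each library.

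Vash1 was lower in old retinas. In the young controls it measured 47.3, 47.0, 42.7 and 47.6 CPM, and in the old controls 35.8, 32.8, 32.5 and 33.1 CPM. The means were 46.1 ± 2.29 and 33.6 ± 1.51 CPM (SD, n = 4 each), and the groups did not overlap. The log2 difference was -0.51 (SE 0.06). This is the contrast that chose the gene, in which 1.42% of 16484 tested genes were called at an edgeR adjusted p under 0.05, and Vash1 was the 1 member among them.

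The NACET groups gave the test, since their 12 mice were not in the contrast that chose Vash1. The members were chosen with earlier results of these data known, so this test was not a blind one. Young NACET mice measured 48.1, 54.4, 48.9, 48.6, 45.9 and 43.6 CPM of Vash1. Old NACET mice measured 34.8, 34.8, 35.7, 37.3, 39.2 and 34.3 CPM. Every old mouse lay below every young one, the highest old value being 39.2 and the lowest young value 43.6. Vash1 fell by 0.47 on the log2 scale (SE 0.05, 95% interval -0.59 to -0.35, edgeR adjusted p = 7.20e-05), from 48.2 ± 3.62 to 36.0 ± 1.88 CPM (SD, n = 6 each). A two-sided exact permutation test on the CPM gave p = 0.00217, the smallest that 6 against 6 allows. It was the 1 member called among 10 in a comparison where 4.88% of 16276 tested genes were called.

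**Figure D1:**
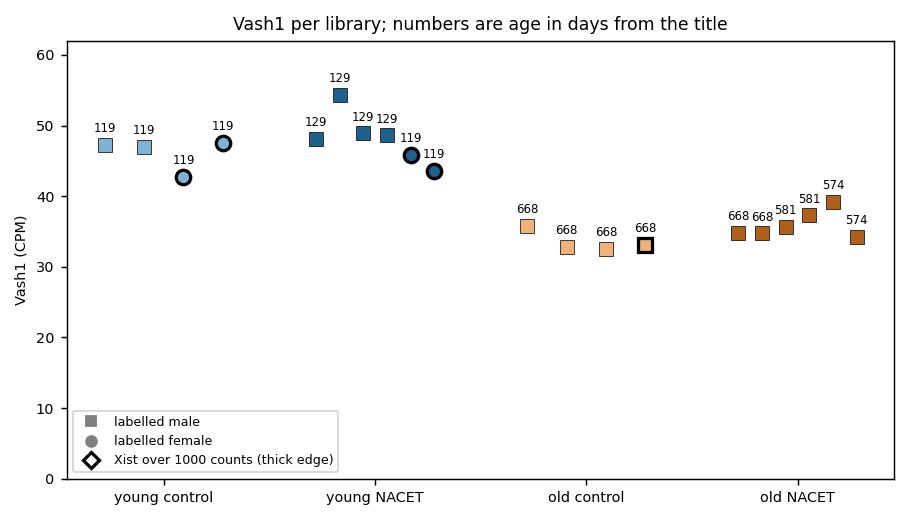
Vash1 in CPM (vertical axis from 0) for each of the 20 libraries by group, with square symbols for mice labelled male, circles for mice labelled female, thick edges for libraries with over 1000 counts of Xist, and age in days above each point. All 10 old libraries lie between 32.5 and 39.2 CPM, and all 10 young libraries between 42.7 and 54.4 CPM.

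The age difference was also seen with sex held fixed. Among NACET mice labelled male, the 4 young (129 days) ranged from 48.1 to 54.4 CPM and the 6 old from 34.3 to 39.2 CPM, with a log2 change of -0.52 (edgeR adjusted p = 0.000172). In that contrast, over the alternatives run, the change stayed between -0.52 and -0.43 and was called each time. Photoreceptor markers were lower alongside: their summed level was 52240 to 63630 CPM in young and 42100 to 49810 CPM in old NACET mice, without overlap, and 47200 to 57390 CPM in old controls against 54600 to 67510 CPM in young ones. Müller glia markers overlapped between the ages, at 2817 to 3175 and 2904 to 3244 CPM under NACET. The 6 endothelial markers did so too, at 21.0 to 40.1 CPM in young and 31.2 to 36.8 CPM in old NACET mice. The part of cell makeup in the Vash1 difference was not tested.

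NACET did not move Vash1 past the threshold at either age. These comparisons share their controls with the age contrast that chose the gene. In old mice the log2 change was 0.09 (SE 0.05, 95% interval -0.00294 to 0.19, edgeR adjusted p = 0.360), in a comparison where 0.543% of 16562 genes were called and 0 of the 10 members. It was 0.05 among 668-day mice alone. In young mice it was 0.05 (SE 0.07, 95% interval -0.10 to 0.20, edgeR adjusted p = 1.00). Old NACET mice (34.3 to 39.2 CPM) thus overlapped old controls (32.5 to 35.8 CPM) and not young controls (42.7 to 47.6 CPM). The interaction, which asks whether NACET acted differently at the 2 ages, was 0.04 on the log2 scale (SE 0.08, edgeR adjusted p = 0.988). No gene of 16588 was called by edgeR for NACET in young mice (0%), with 724 at an unadjusted p under 0.05 and 0 called by DESeq2. For the interaction 0 of 16993 were called by edgeR (0%), with 1052 at an unadjusted p under 0.05 and 82 called by DESeq2, none of them a member.

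The partners of vasohibin 1 did not pass any test. Vash2 averaged 4.65 ± 0.921 CPM in young controls and 4.42 ± 1.00 CPM in old controls (SD, n = 4 each), and 4.55 ± 0.790 against 4.19 ± 0.732 CPM under NACET (SD, n = 6 each), which was -0.17 in log2 terms (SE 0.13, edgeR adjusted p = 0.503) in the latter. Svbp, listed in the files under its older name Ccdc23, differed by -0.03 with age under NACET (log2, SE 0.11, edgeR adjusted p = 0.920). Ttl, the ligase that reverses the vasohibin reaction, stood at 15.0 ± 1.88 and 15.7 ± 0.958 CPM in the same groups (SD, n = 6 each), which was 0.02 in log2 terms (SE 0.07, edgeR adjusted p = 0.892). The 95% intervals of these 3 age changes were -0.45 to 0.11, -0.27 to 0.21 and -0.13 to 0.18.

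**Figure D2:**
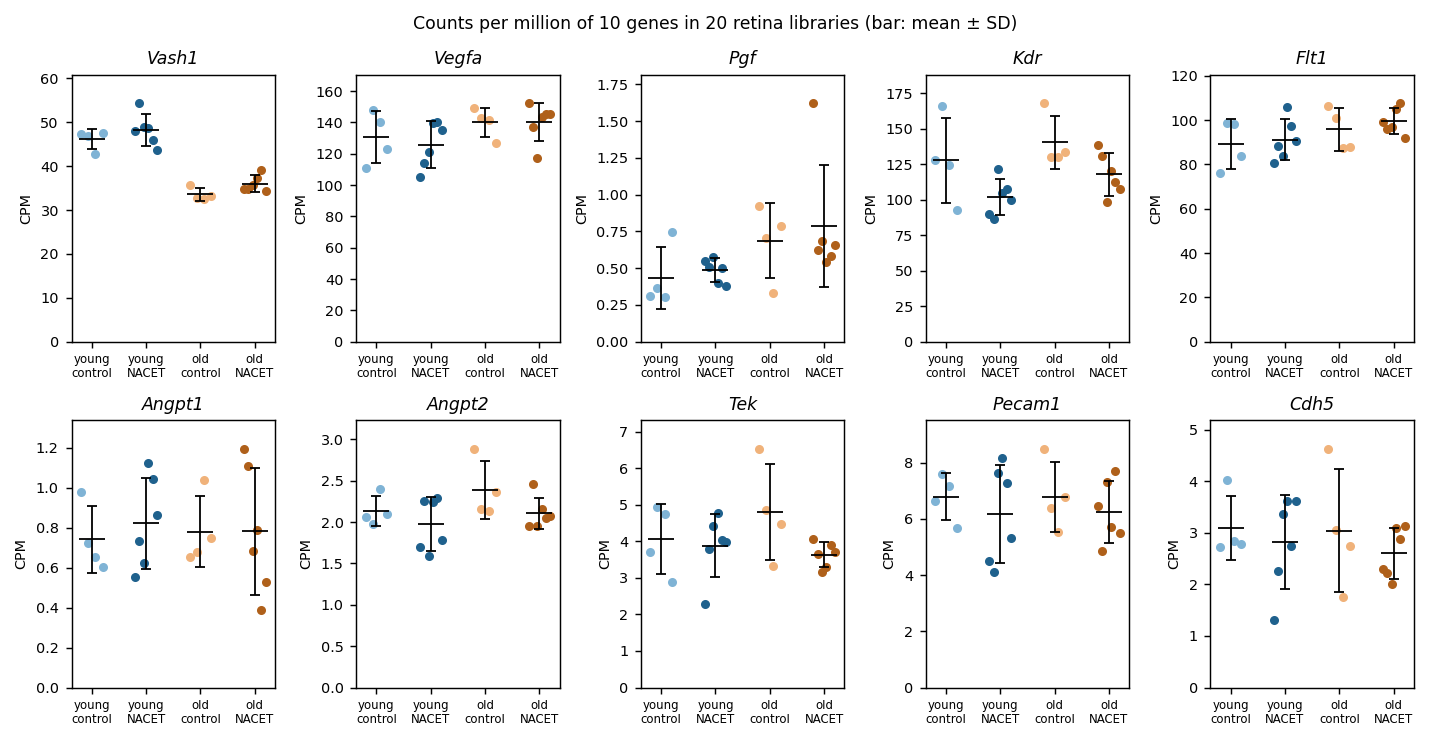
CPM (each vertical axis from 0) of the 10 genes, 1 panel a gene, with 1 point a library and a bar for the mean ± SD of each of the 4 groups. Vash1 separates by age without overlap, while in each of the other 9 panels the young and old points overlap.

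Vegfa, the main angiogenic ligand, was the highest of the 10 per kilobase in every group and was called in no comparison. Young controls measured 111.0, 148.2, 140.3 and 123.3 CPM, and old controls 149.0, 142.7, 141.6 and 126.9 CPM. NACET groups ran from 105.2 to 140.4 CPM in young mice and from 117.6 to 152.3 CPM in old mice. All 4 ranges overlapped. Under NACET the age change was 0.11 (log2, SE 0.07, edgeR adjusted p = 0.380) with a 95% interval of -0.03 to 0.25. The NACET difference of Vegfa was -0.00453 in old mice (SE 0.06, interval -0.13 to 0.12) and -0.07 in young mice (SE 0.09, interval -0.25 to 0.12). Vegfb, a family member with a role in lipid handling more than vessel growth, was not called either, with group means of 29.8 to 31.2 CPM.

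Kdr, the main signalling receptor of VEGF-A, was lower in NACET groups, although no change passed the threshold. Old controls measured 168.1, 129.9, 130.1 and 133.8 CPM. Old NACET mice measured 138.6 and 131.2 CPM at 668 days, 98.4 and 120.5 CPM at 581 days, and 112.2 and 107.5 CPM at 574 days. The 2 NACET mice of the controls' own age thus lay within the control range, and the 4 younger ones below it. The change was -0.26 over all old mice (log2, SE 0.08, 95% interval -0.44 to -0.07, edgeR adjusted p = 0.181), and -0.06 (adjusted p = 0.900) among 668-day mice alone. Without old control replicate 1, the highest, it was -0.18 (adjusted p = 0.309). In young mice, controls measured 128.3, 166.1, 124.7 and 92.9 CPM and NACET mice from 86.8 to 122.0 CPM, with a median of 102.3 CPM. The groups overlapped, with a change of -0.34 (SE 0.12, 95% interval -0.60 to -0.08, edgeR adjusted p = 1.00). With age in the title as a covariate the young change was -0.30, among mice labelled male it was -0.57 (edgeR adjusted p = 0.905), and without 1 library at a time it ran from -0.47 (without young control replicate 4) to -0.21 (without young control replicate 2). Kdr showed no call with age under NACET (0.17, SE 0.08, edgeR adjusted p = 0.252).

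Flt1, the decoy-like receptor, had changes near 0 under NACET and was called at neither age. It averaged 95.7 ± 9.52 CPM in old controls (SD, n = 4) and 99.4 ± 5.85 CPM in old NACET mice (SD, n = 6). The log2 change came to 0.05 (SE 0.06, edgeR adjusted p = 0.757), and in young mice 0.02 (SE 0.08, edgeR adjusted p = 1.00). Whether the 2 receptors differed from each other under NACET was not tested. With age under NACET Flt1 differed by 0.08 (SE 0.06, 95% interval -0.04 to 0.20, edgeR adjusted p = 0.445).

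Pgf, the ligand of Flt1 alone, was the member with the highest age change above 0 under NACET, at a level under 2 CPM throughout. Young NACET mice measured 0.551, 0.509, 0.577, 0.401, 0.500 and 0.377 CPM. Old NACET mice measured 1.62, 0.626, 0.683, 0.540, 0.585 and 0.660 CPM. Only the 0.540 CPM of an old mouse fell within the young range, and 1 old mouse stood far above the rest. The log2 change came to 0.64 (SE 0.28, 95% interval 0.04 to 1.24), which did not pass the threshold (edgeR adjusted p = 0.209), and 0.30 without old NACET replicate 1 (adjusted p = 0.563). Old controls measured 0.925, 0.708, 0.328 and 0.789 CPM, and young controls 0.309, 0.362, 0.305 and 0.744 CPM. The 2 libraries with the highest smooth muscle actin (Acta2), young control replicate 4 at 13.5 CPM and old NACET replicate 1 at 23.5 CPM, had the highest Pgf of their groups, at 0.744 and 1.62 CPM. Acta2 in the other 18 libraries was between 1.15 and 4.65 CPM. Myh11, also a smooth muscle gene, was 22.0 CPM in young control replicate 4. In old NACET replicate 1 Myh11 was 1.72 CPM, within a group range of 1.28 to 2.63 CPM. The part of mural cells in the Pgf values was not tested.

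The angiopoietins were low in these libraries. Angpt1, the activating ligand, averaged between 0.740 and 0.823 CPM in the 4 groups, and Angpt2, released by endothelium to loosen vessels, between 1.98 and 2.39 CPM. In CPM per kilobase Angpt2 exceeded Angpt1 in all 20 libraries, with a median ratio of 3.23 (range 1.89 to 6.06). Neither was called in any comparison. For Angpt1 the 95% interval of the age change under NACET ran from -0.69 to 0.43 on the log2 scale, so that changes of moderate size in either direction lay within it.

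Tek, their receptor, was lower in old NACET mice than in old controls, without passing the threshold. Old controls measured 6.53, 4.86, 3.34 and 4.49 CPM and old NACET mice 4.06, 3.66, 3.17, 3.29, 3.90 and 3.70 CPM. The NACET values lay close together and 3 of the 4 controls above all of them. The log2 change came to -0.41 (SE 0.14, 95% interval -0.72 to -0.10, edgeR adjusted p = 0.209), and -0.32 (adjusted p = 0.747) among 668-day mice alone. Without old control replicate 1 it was -0.26 (adjusted p = 0.370). Tie1, the co-receptor of Tek, differed by -0.35 (SE 0.15, edgeR adjusted p = 0.308). The control with the highest Tek, old control replicate 1, also had the highest sum of the 6 endothelial markers, 46.6 CPM against 29.6 to 33.9 CPM in the other old controls and 31.2 to 36.8 CPM in old NACET mice.

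Pecam1 and Cdh5 (VE-cadherin), which hold endothelial cells together, are common measures of how much endothelium a sample holds. Pecam1 averaged 6.78 ± 0.836 CPM in young controls and 6.79 ± 1.24 CPM in old controls (SD, n = 4 each), and 6.18 ± 1.74 and 6.25 ± 1.10 CPM in young and old NACET mice (SD, n = 6 each). The age change under NACET was -0.03 (log2, SE 0.16, 95% interval -0.36 to 0.30, edgeR adjusted p = 0.935). For Cdh5 it was -0.15 (SE 0.20, 95% interval -0.57 to 0.26, edgeR adjusted p = 0.699). Young NACET replicate 1 was lowest of all for Cdh5, at 1.32 CPM, and had the lowest endothelial sum, 21.0 CPM, of the 20 libraries. Its Vash1, 48.1 CPM, was in the middle of its group.

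**Figure D3:**
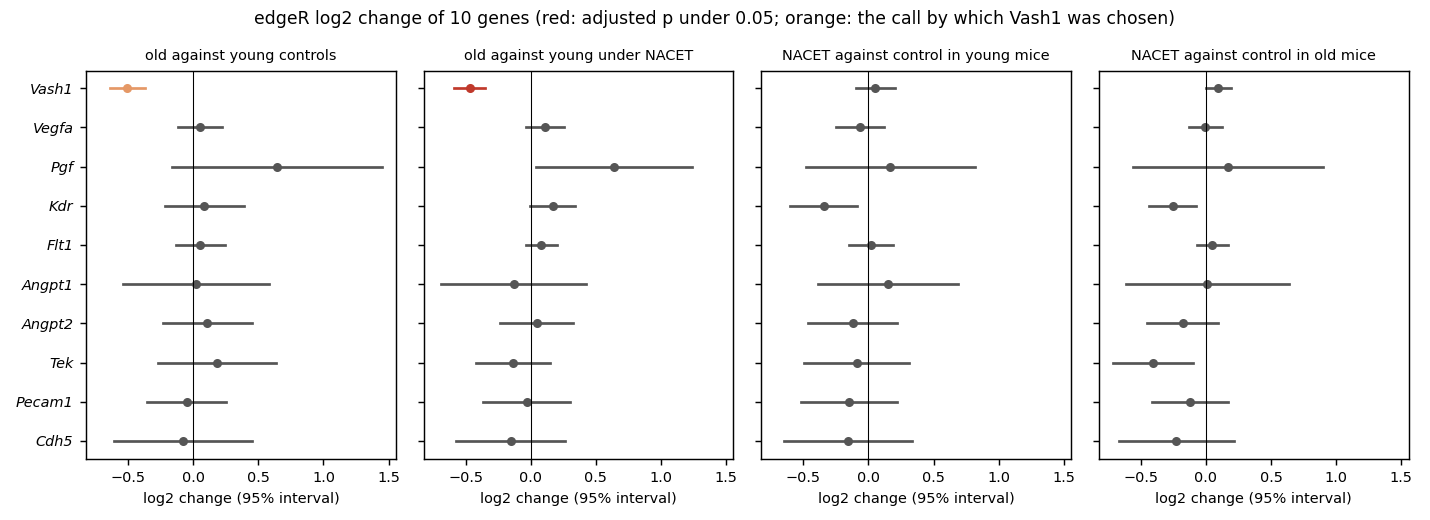
Change of each of the 10 genes on the log2 scale (horizontal axis, point for the edgeR value and line for its 95% interval) in 4 comparisons, with red for an adjusted p under 0.05 and orange for the contrast by which Vash1 was chosen. Only Vash1 with age is called, at -0.47 under NACET, while the intervals of Kdr under NACET (-0.44 to -0.07 in old and -0.60 to -0.08 in young mice) and of Tek in old mice lie below 0 without a call.

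Over the 10 genes, the median log2 change was 0.00658 with age under NACET (5 above and 5 below 0), -0.06 for NACET in old mice (4 and 6) and -0.08 for NACET in young mice (4 and 6). The medians over all tested genes were -0.00129, 0.00205 and -0.00451. At an unadjusted p under 0.05 stood Vash1 and Pgf with age under NACET, Kdr and Tek for NACET in old mice, Kdr for NACET in young mice, and 0 for the interaction. In old against young controls the median was 0.05 (7 above and 3 below 0) against -0.00677 over all genes. The age contrasts in controls and under NACET share no mouse, and 8 of the 10 genes had the same sign in both, Angpt1 and Tek being the exceptions. That count is a description only. It includes Vash1, which the control contrast chose, and the share over all genes is not given. In controls the signs of Vegfa, Kdr, Flt1, Angpt1, Pecam1 and Cdh5 turned when single libraries were left out.

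The wider pathway was followed in 80 further genes in 9 lists. With age under NACET, 1 of 77 tested rose and 4 fell, a share of 6.49% against 4.88% of all genes, and their median was -0.00604. In old against young controls 1 of 79 rose and 0 fell (1.27% against 1.42% of all genes, median -0.04), for NACET in old mice 0 of 77 were called (smallest edgeR adjusted p 0.0517, for the glycolytic enzyme gene Pgk1) and in young mice 0 of 78. The interaction gave 0 of 79.

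Plvap, which builds the diaphragms of fenestrated endothelium and is scarce where the blood-retina barrier is closed, was the 1 listed gene called higher with age in both sets of mice. It measured 4.79, 5.60, 5.66 and 5.07 CPM in young controls and 9.57, 8.27, 8.43 and 6.85 CPM in old controls. Under NACET it ran from 4.21 to 7.01 CPM in young and from 7.94 to 10.7 CPM in old mice. Neither pair of groups overlapped. The log2 changes were 0.59 (SE 0.11, edgeR adjusted p = 0.0272) in controls and 0.58 (SE 0.11, edgeR adjusted p = 0.00759) under NACET. A two-sided exact permutation test on the CPM of the NACET mice gave p = 0.00217, the smallest possible. Plvap was picked from the listed genes by its call in these same mice, so that p adds no support of its own. In controls the call was lost with a replicate block, with labelled sex as a covariate, among mice labelled male, among males without Xist, and without any 1 of young control replicates 2, 3 and 4 and old control replicates 1, 2 and 3. The log2 change stayed between 0.55 and 0.69 under all of these. Under NACET Plvap was called without each library in turn. Plvap is also made by the choroidal vessels outside the retina. The pigment epithelium markers, from that side of the eye, summed to 74.8 to 149.6 CPM in young and 29.7 to 90.6 CPM in old NACET mice, and among controls 3 of 4 young libraries (37.5 to 53.0 CPM) lay below all 4 old ones (78.9 to 183.5 CPM). The part of choroidal tissue in the Plvap values was not tested. The other 22 endothelial genes had no call with age.

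Of 12 pericyte and smooth muscle genes, Cspg4 (NG2), a proteoglycan of pericytes, fell with age under NACET from 1.21 ± 0.452 to 0.650 ± 0.171 CPM (SD, n = 6 each), which was -0.94 in log2 terms (SE 0.24, edgeR adjusted p = 0.0347). In controls it differed by -0.64 (SE 0.23, edgeR adjusted p = 0.203). In those controls 10 of the 12 had a log2 difference below 0 and their median was -0.52, with 0 calls, and under NACET 7 of 11 tested were below 0 with a median of -0.13. Acta2 in young control replicate 4, at 13.5 CPM against 2.66 to 2.98 CPM in the other 3, stands on the young side of the first comparison.

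Of the hypoxia genes, Epas1 and Pgk1 fell with age under NACET. Epas1 encodes HIF-2 alpha, an oxygen-regulated factor of endothelium and glia. Epas1 went from 210.4 ± 11.8 to 188.5 ± 10.3 CPM (SD, n = 6 each), which was -0.21 in log2 terms (SE 0.06, edgeR adjusted p = 0.0465). Pgk1 went from 36.5 ± 2.72 to 31.7 ± 0.445 CPM (SD, n = 6 each), which was -0.25 in log2 terms (SE 0.06, edgeR adjusted p = 0.0245). The 14 tested hypoxia genes had a median of -0.10 in that contrast, with 10 below 0. Vegfa, itself a target of this pathway, was 0.11 in the same contrast. In controls the age changes were -0.25 for Epas1 and -0.14 for Pgk1, and neither was called. For NACET in old mice the changes of Epas1 and Pgk1 were 0.02 and -0.21, also uncalled.

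Among 9 angiogenesis inhibitors, the group in which vasohibin 1 is counted by function, Thbs1 (thrombospondin 1) fell with age under NACET by 0.78 on the log2 scale (SE 0.21, edgeR adjusted p = 0.0449), from a mean of 7.95 CPM (range 4.66 to 9.62) to 4.80 CPM (2.59 to 6.68). In controls it had the other sign, 0.49 (SE 0.36, edgeR adjusted p = 0.533), with young controls at 5.36, 2.90, 3.40 and 10.0 CPM. Pigment epithelium markers moved alongside, at 37.5, 38.8, 53.0 and 214.8 CPM in young and 78.9 to 183.5 CPM in old controls, and at 74.8 to 149.6 CPM in young and 29.7 to 90.6 CPM in old NACET mice. Young control replicate 4 was highest of its group for both Thbs1 and these markers. Their part in the Thbs1 values was not tested. The difference between the sets for Thbs1, tested by the interaction, was not called (edgeR adjusted p = 0.507). With each of the 12 NACET libraries left out in turn, the age call was kept in 8 fits for Pgk1 and 6 for Cspg4. For Epas1 it was kept in 4 and for Thbs1 in 3. Without old NACET replicate 1, and likewise without old NACET replicate 4, Plvap was the 1 listed gene still called with age under NACET. The sizes of the other 4 changes moved little there, to -0.88 and -0.93 for Cspg4, -0.19 and -0.20 for Epas1, -0.25 and -0.25 for Pgk1, and -0.78 and -0.86 for Thbs1 (log2), while the edgeR adjusted p ran from 0.0508 to 0.105.

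The lists of VEGF family members and co-receptors, of angiopoietin and TIE genes, of Norrin and FZD4 signalling and of Notch in vessels had 0 calls in every comparison. Angpt4, a further angiopoietin, averaged 1.56 ± 0.659 CPM in young and 0.647 ± 0.202 CPM in old controls (SD, n = 4 each), which was -1.25 in log2 terms (SE 0.33, edgeR adjusted p = 0.0922). Under NACET it averaged 1.58 ± 0.606 and 0.921 ± 0.338 CPM (SD, n = 6 each), or -0.83 (SE 0.29, edgeR adjusted p = 0.107). Its groups overlapped in both sets of mice. Nrp1, a co-receptor of VEGF, differed by -0.33 in controls (SE 0.09, edgeR adjusted p = 0.0905) and by -0.06 under NACET (SE 0.09, edgeR adjusted p = 0.772). Fzd4, the receptor of Norrin in retinal endothelium, had the lowest adjusted p of these lists with age under NACET (0.24, SE 0.08, edgeR adjusted p = 0.0770), and Lrp5, its co-receptor, was at 0.02 (SE 0.10). Nrp2, the other neuropilin, differed by 0.08 (SE 0.08), and Ptprb, the phosphatase that restrains Tek, by 0.10 (SE 0.17). Jag1, a Notch ligand, differed by -0.00208 with age under NACET (SE 0.07) and by -0.19 with NACET in old mice (SE 0.06, edgeR adjusted p = 0.138), while Notch1 differed by 0.02 and 0.03 in those contrasts.

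**Figure D4:**
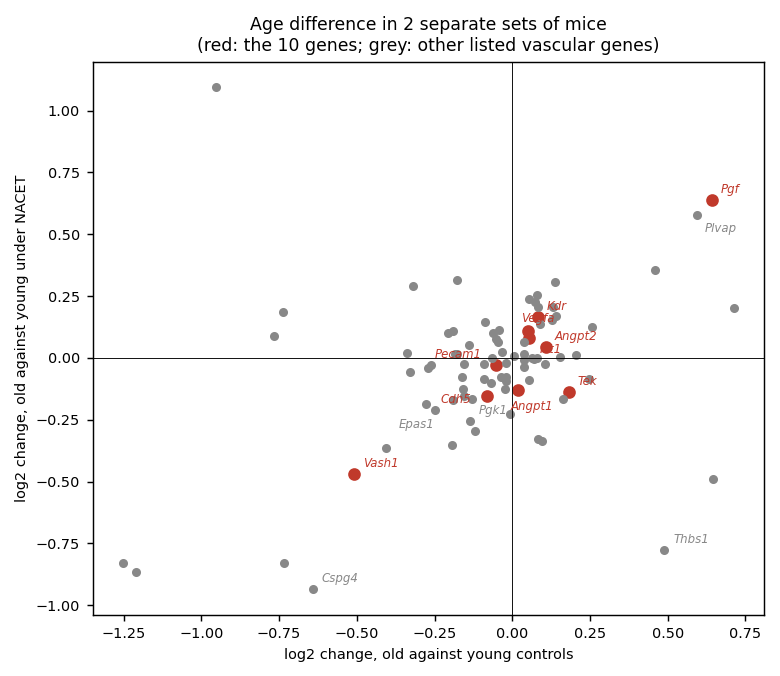
Age difference on the log2 scale in controls (horizontal axis) and under NACET (vertical axis), from separate mice, for the 10 genes (red) and 77 other listed vascular genes (grey), with names for the 10 and for genes called in either contrast. Vash1 lies at -0.51 and -0.47 and Plvap at 0.59 and 0.58, while Thbs1 lies at 0.49 and -0.78.

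Beyond the group means, several of the 10 genes moved together from mouse to mouse. For this, log2 CPM (prior count 1) was taken as the deviation from the group mean over the 20 libraries, and each of 45 pairs was tested by permutation within groups (100000 draws, two-sided). After adjustment over the 45 pairs, 6 passed by Pearson's r and by Spearman's rho. Tek and Cdh5 had the highest r, 0.82 (rho 0.717, permutation p = 0.00046 and 0.00117, adjusted 0.0207 and 0.0132). Vegfa and Flt1 followed with r = 0.757 (rho 0.783, permutation p = 0.00116 and 0.00036, adjusted 0.0216 and 0.0084). Kdr with Tek (0.686), Tek with Pecam1 (0.652), Vegfa with Tek (0.648) and Vegfa with Cdh5 (0.627) were the others, with adjusted permutation p from 0.0216 to 0.0329 for r and from 0.0084 to 0.0392 for rho. Without the 2 libraries farthest from the median, Tek and Cdh5 gave 0.625, Vegfa and Flt1 0.782, and the other 4 pairs 0.447 to 0.595. Tek thus appeared in 4 of the 6 pairs, and Vegfa, which is made mainly by other cells, in 3.

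Vash1 was not part of that group. Of its 9 pairs 0 passed, and its r with Pecam1, Cdh5 and Tek was 0.026, 0.085 and 0.032. Library depth and endothelial content are shared by all genes of a library and their part in these correlations was not tested.

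**Figure D5:**
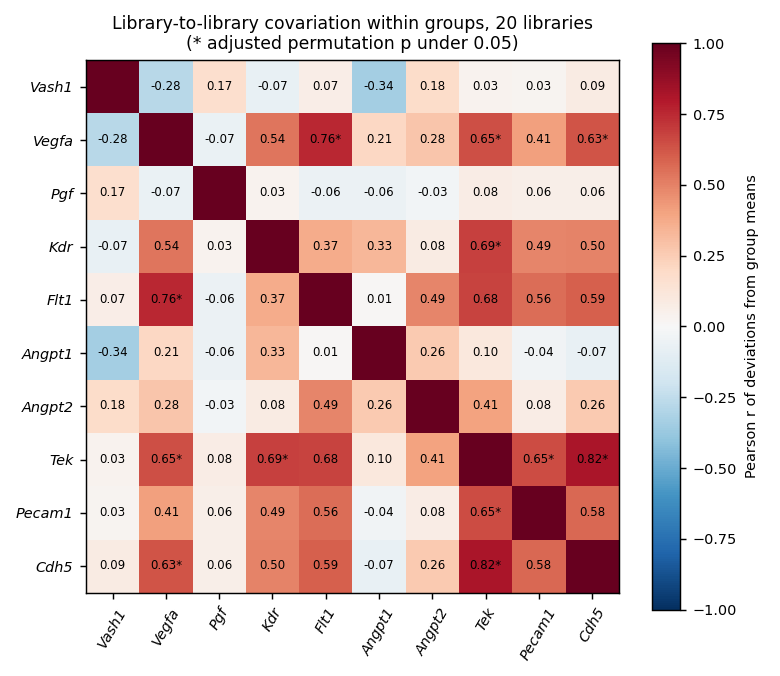
Pearson r of the deviations from group means of log2 CPM over the 20 libraries for the 45 pairs of the 10 genes (colour from -1 to 1, value in each cell, an asterisk for an adjusted permutation p under 0.05). The 6 marked pairs, r from 0.627 to 0.82, join Vegfa, Kdr, Flt1, Tek, Pecam1 and Cdh5, and no pair with Vash1 is marked.

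The genes whose pattern over the 20 libraries was most like that of Vash1, among 14927 at 1 CPM or more in at least 10 libraries, were Otop3 (Pearson r of log2 CPM 0.90), Tbc1d9 (0.899), Sdc3 (0.889), Spry2 (0.889) and Snrk (0.876). All 5 were lower in old than in young mice in their group means, for example Sdc3, a neuronal and glial heparan sulphate proteoglycan, at 186.7 and 150.6 CPM in controls. As these r values carry the age difference that chose Vash1, the r of deviations from group means stands beside them: 0.468, 0.58, 0.331, 0.363 and -0.275. Those most like Pecam1 were Klf11 (0.804), Rras2 (0.797), Plcd1 (0.787), Klf7 (0.776) and Adcyap1r1 (0.774), with deviations correlated at 0.783 to 0.845. None of these genes was a member or on a list of the vascular pathway. The libraries share depth and cell makeup, so these correlations are descriptions.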

How the data were processed

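Retinal polyA RNA (TruSeq v2) was sequenced as single-end reads. The authors aligned the reads to mm9 with TopHat2 2.1.0 and counted them per gene over exons with HTSeq 0.11.2, without strand; the gene annotation is not given in the sources used here. The deposited counts, 1 table per mouse, were used as they stand: whole-number counts of 35006 genes, 17700500 to 31081959 per library. Rows without a gene held at most 0.00218% of a library and were left out. CPM were computed on library totals. Fold changes came from edgeR 4.0.16 (R 4.3.3): TMM scaling, filterByExpr, quasi-likelihood test on the 2 groups compared, and on all 20 libraries for the interaction. A gene was called at a Benjamini-Hochberg adjusted p under 0.05 over all genes tested. DESeq2 1.42.0, the study's tool, was an alternative. Scripts were tested on simulated data.

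The members and lists were chosen with earlier results of these data known. Named were all 10 members, every listed gene called in a comparison, the 2 highest genes of lists without a call, and the 5 genes most like Vash1 and Pecam1. Genes also named outside this rule, Acta2, Myh11, Vash2, Angpt4 and Nrp1, were chosen after their values were seen. Positions are those of GENCODE on mm9. Replicate numbers are not stated to pair mice: deviations of same-numbered libraries correlated at -0.159 to 0.123. Nothing says how samples were spread over preparation days.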

Additional observations from a re-analysis of the deposited data

Results flagged for a closer look

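In 5 of 40 tests over the 10 genes and 4 groups, 1 library stood apart from the others of its group by Dixon's criterion, which chance meets in about 1 of 20 groups. Vash1 was lowest in young control replicate 3, at 42.7 CPM against 47.0 to 47.6 CPM in the other young controls, and this was still above all old mice. Kdr was highest in old control replicate 1, at 168.1 CPM against 129.9 to 133.8 CPM. That library also held the highest endothelial marker sum. Pgf was highest in young control replicate 4, at 0.744 CPM against 0.305 to 0.362 CPM, and in old NACET replicate 1, at 1.62 CPM against 0.540 to 0.683 CPM. These were the 2 libraries with the highest Acta2, while Myh11 was 22.0 CPM in the former and 1.72 CPM in the latter. Cdh5 was highest in young control replicate 2, at 4.03 CPM against 2.73 to 2.83 CPM.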

How the results depend on the processing

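Vash1 was called lower with age under NACET in all alternatives. The control contrast chose Vash1, so its calls there are a description and no test. They stood in all settings but 1, males without Xist, where 0 members were called. The log2 change of Vash1 was -0.55 there against -0.51 in all controls. No other member was called under any setting. Of 1001 values of the 10 genes under the alternatives, 922 kept their direction and side of the threshold, 78 turned sign and 1 lost its call; each value that turned sign was uncalled. The cause of these shifts was not tested, and the lowest members, Pgf and Angpt1, rest on the fewest counts.

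Replicate numbers did not pair the libraries. A replicate block left 0 listed vascular genes called with age in controls (main 1) and 3 with age under NACET (main 5), and changed no count of members. DESeq2 called 3 listed genes with age in controls, 3 for NACET in old mice (main 0) and 9 with age under NACET. With labelled sex as a covariate, or labelled males only, 0 were called with age in controls, and with labelled males only 3 with age under NACET. Leaving out each library in turn gave 0 to 2 with age in controls, 0 to 1 for NACET in old mice and 1 (without old NACET replicate 1 or 4) to 7 (without young NACET replicate 3) with age under NACET. The share of all genes called under each of these settings is not given here. These counts therefore describe the settings and are no result about vascular genes.

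With age in controls, Kdr turned to -0.12 with sex as a covariate, -0.12 in labelled males and -0.11 in males without Xist, and Angpt1 to -0.18, -0.18 and -0.17. Vegfa for NACET in old mice turned to 0.041 in 668-day mice and 0.040 with cohort as a covariate. For NACET in young mice, with the batch tag or the title's age as a covariate, Vash1 turned to -0.026 and -0.041 and Vegfa to 0.087 and 0.081. In that contrast Angpt2 (0.087) and Pecam1 (0.087) turned with the batch tag, Cdh5 (0.037) with the title's age, Flt1 (-0.010) with the replicate block and Angpt1 (-0.18) in labelled males. The Pgf interaction turned to -0.00352 without a filter, -0.00254 with the replicate block and -0.032 with labelled sex.

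Leaving out single libraries turned the sign of 21 uncalled values. With age in controls the ranges were -0.0077 to 0.10 for Vegfa, -0.048 to 0.22 for Kdr, -0.0025 to 0.11 for Flt1, -0.13 to 0.18 for Angpt1, -0.14 to 0.028 for Pecam1 and -0.30 to 0.096 for Cdh5. For NACET in old mice they were -0.042 to 0.037 for Vegfa, -0.17 to 0.29 for Pgf and -0.15 to 0.16 for Angpt1, and in young mice -0.034 to 0.076 for Flt1 and -0.23 to 0.022 for Tek. With age under NACET they were -0.29 to 0.0023 for Angpt1, -0.019 to 0.086 for Angpt2 and -0.12 to 0.046 for Pecam1. For the interaction they were -0.054 to 0.21 for Kdr, -0.028 to 0.081 for Flt1, -0.38 to 0.13 for Pgf, -0.32 to 0.0099 for Angpt1, -0.13 to 0.016 for Angpt2, -0.062 to 0.12 for Pecam1 and -0.25 to 0.16 for Cdh5.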
